A study of Arabidopsis thaliana with 8 samples.

Results

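The mitochondrial genome of Arabidopsis thaliana was followed through its transcripts in rosette leaves deprived of copper, of iron or of both. The members were the entries whose identifier begins with ATMG, which lie on the mitochondrial chromosome, whose locus spans at least 300 bp and whose level was above 0 in at least 2 libraries. They numbered 99, out of 162 mitochondrial entries and 38093 entries in all. Of the mitochondrial entries, 39 were shorter than 300 bp and 24 longer ones were above 0 in fewer than 2 libraries. Plants of the ecotype Col-0 spent 12 d on soil and 10 d in a hydroponic tenth-strength Hoagland medium with 1 µM copper sulfate. They then stayed for 10 d on that medium (control), on medium lacking copper sulfate with 10 µM of the copper chelator bathocuproinedisulfonic acid (copper deficiency), on medium lacking FeEDTA (iron deficiency), or on medium lacking both with the chelator (double deficiency). The labels give the age of the plants as 20 d, which is shorter than these periods together. Each group had 2 libraries, numbered 1 and 2, and all leaves were taken 4 h after lights came on. Levels are the deposited FPKM (fragments per kilobase of transcript, scaled to the mapped total), so that levels of genes of different length can be set side by side.

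The plant mitochondrial genome encodes the ribosomal RNAs of the organelle, some of its ribosomal proteins, core subunits of the respiratory complexes and of ATP synthase, proteins that attach haem to cytochrome c, and the maturase MatR. Nucleus-encoded polymerases transcribe it, and many transcripts are spliced, some of them by joining separately transcribed pieces, and are edited from C to U before translation. Most subunits of the same complexes come from nuclear genes, and iron enters complexes I to III as haem or iron-sulfur clusters, while complex IV carries haem and copper. Stable plant mitochondrial messenger RNAs generally lack a poly(A) tail.

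Names came from the RefSeq annotation of TAIR10.1, and 95 of the 99 members received one. A known product was listed for 37 members: 11 belonged to complex I, 4 to complexes III and IV, 6 to ATP synthase, 5 to cytochrome c maturation, 7 to the ribosomal proteins and 2 to the ribosomal RNAs, while matR and mttB, a membrane protein related to a protein transport component, formed a last pair. The other 62 were mostly open reading frames named by length. Coordinates on ChrM follow the authors' loci, counted here from base 1, and no source used here names their build. They differ from TAIR10.1's own mitochondrial coordinates, which are given only with the sequences.

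Several features of the sequence bear on which reads a member can receive, and the members that the comparisons turn on are shown for that reason. The open reading frame orf107a (chrMT:143781-144104 of RefSeq's TAIR10.1, plus strand) lies partly within the 26S ribosomal RNA gene rrn26, which is on the opposite strand. Its 185 bases inside rrn26, of 324, are in capitals in the first 300 bases shown (chrMT:143781-144080), and because the libraries were unstranded, reads of the 2 genes cannot be told apart there.
orf107a: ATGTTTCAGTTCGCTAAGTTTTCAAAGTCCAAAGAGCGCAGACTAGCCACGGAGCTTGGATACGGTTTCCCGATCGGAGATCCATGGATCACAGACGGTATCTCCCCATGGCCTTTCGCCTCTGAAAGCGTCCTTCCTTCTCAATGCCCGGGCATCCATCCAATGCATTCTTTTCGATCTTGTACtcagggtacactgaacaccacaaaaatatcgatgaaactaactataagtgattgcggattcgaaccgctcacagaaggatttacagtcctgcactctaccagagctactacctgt
The open reading frame orf118 (chrMT:287586-287942, plus strand) shares with its neighbour orf114 the 203 bases in capitals, shown with the bases before them (chrMT:287643-287942).
orf118: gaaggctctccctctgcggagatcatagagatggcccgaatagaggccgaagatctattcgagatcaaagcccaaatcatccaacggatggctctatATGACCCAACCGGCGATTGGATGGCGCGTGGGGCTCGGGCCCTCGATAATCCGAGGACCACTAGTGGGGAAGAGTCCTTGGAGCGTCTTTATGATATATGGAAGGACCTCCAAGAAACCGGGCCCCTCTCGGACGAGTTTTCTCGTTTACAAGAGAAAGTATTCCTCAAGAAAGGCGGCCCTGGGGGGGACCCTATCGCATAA
The gene atp9 (chrMT:270961-271185, minus strand) encodes the membrane ring subunit of ATP synthase, and its 5 annotated editing sites are in capitals. An insertion of mitochondrial DNA in nuclear chromosome 2 holds the same 225 bases without a difference, at chr2:3251856-3252080.
atp9: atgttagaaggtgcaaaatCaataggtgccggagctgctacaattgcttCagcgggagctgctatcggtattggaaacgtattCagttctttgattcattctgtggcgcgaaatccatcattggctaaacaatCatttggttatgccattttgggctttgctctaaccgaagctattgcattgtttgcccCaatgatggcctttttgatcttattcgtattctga
The gene ccmB encodes a subunit of the cytochrome c maturation machinery. RefSeq annotates 51 editing sites in its 621 bases, and the 150 bases richest in them (chrMT:18242-18391, minus strand) hold 22, shown in capitals. A read of the edited transcript differs from the genome at each of them.
ccmB: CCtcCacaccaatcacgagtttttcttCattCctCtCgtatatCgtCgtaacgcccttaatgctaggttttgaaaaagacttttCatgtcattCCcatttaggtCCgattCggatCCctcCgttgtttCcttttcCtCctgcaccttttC
The open reading frame orf262 differs from its copy on chromosome 2 at 2 of 789 bases. The 61 bases around each difference (chrMT:270361-270421 beside chr2:3251256-3251316, and chrMT:270097-270157 beside chr2:3250992-3251052, all minus strand) have the differing base in capitals.
orf262, first window: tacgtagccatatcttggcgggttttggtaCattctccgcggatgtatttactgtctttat
nuclear copy, first window: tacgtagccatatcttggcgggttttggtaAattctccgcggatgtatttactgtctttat
orf262, second window: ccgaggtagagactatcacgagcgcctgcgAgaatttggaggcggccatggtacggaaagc
nuclear copy, second window: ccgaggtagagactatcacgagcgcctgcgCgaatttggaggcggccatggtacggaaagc
Of the 95 named members, 67 had such a copy (at least 95% identity over at least 90% of the gene), all between bases 3239341 and 3507323 of chromosome 2, and in 44 it was identical. The ribosomal RNAs, cox1, cox2, atp4, nad9, rps3, rpl16, ccmB and nad4 were among the 28 named members without one. Being without a copy rests on these thresholds, as a partial nuclear match covered 87.2% of nad4 and 71.9% of orf113. For a member with an identical copy, a mitochondrial and a nuclear source cannot be told apart. For example, atp8, a membrane subunit of ATP synthase, and its nuclear copy AT2G07707 were listed at equal levels, within 0.01 FPKM, in 7 of 8 libraries.

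The members took a small and uneven part of the measured RNA. Their summed level was 142 and 161 FPKM in control, 129 and 31.7 FPKM in copper deficiency, 785 and 212 FPKM in iron deficiency, and 181 and 183 FPKM in double deficiency. As a share of all FPKM this was 0.0142% ± 0.000715 in control, 0.00734% ± 0.00581 in copper deficiency, 0.0448% ± 0.0352 in iron deficiency and 0.0168% ± 0.000534 in double deficiency (mean ± SD, n = 2 each). Control and double deficiency were each even, whereas the libraries of the single deficiencies differed from each other by more than control and double deficiency did. No test was made of this share, which sums members chosen with earlier results known. In leaves as a bulk sample, fewer cells of a type and less RNA per cell cannot be told apart.

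**Figure D1:**
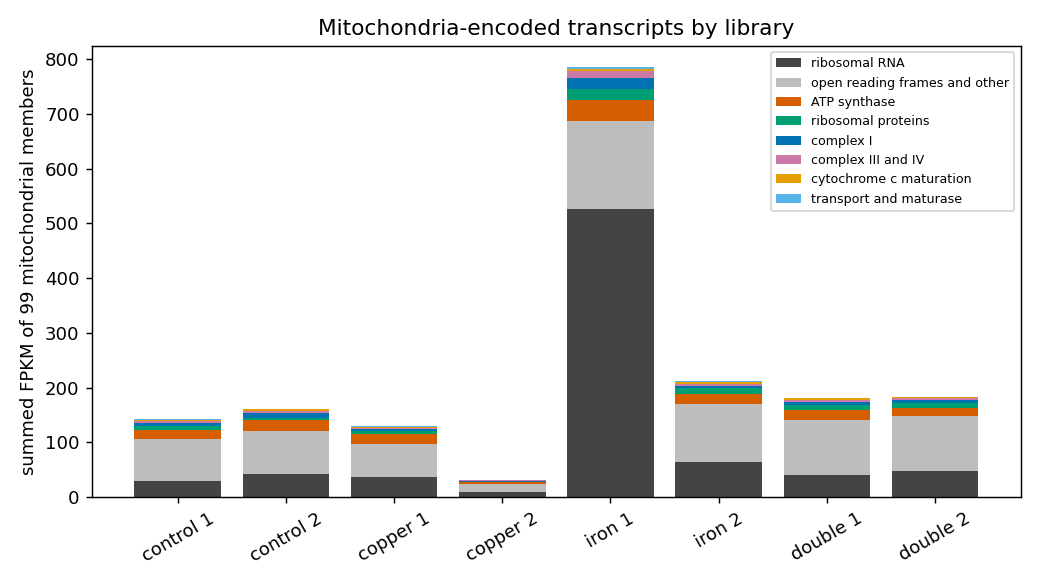
Summed FPKM (y axis) of the 99 mitochondrial members in each of the 8 libraries (x axis), stacked by the role of the product. Iron deficiency 1 stands highest at 785 FPKM, of which the ribosomal RNAs hold 526 FPKM, and copper deficiency 2 lowest at 31.7 FPKM.

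Library 2 of copper deficiency and library 1 of iron deficiency stood apart before any comparison. All 8 role groups had their lowest sum in copper deficiency 2 and their highest in iron deficiency 1. Copper deficiency 2 also held 0.278% of its FPKM in plastid genes, against 5.83 to 11.2% in the other 7 libraries, and 0.0760% in nuclear ribosomal RNA, against 0.358 to 5.94%. Iron deficiency 1 was the library with 5.94% in nuclear ribosomal RNA, and the other iron-deprived libraries held 1.66 to 2.68%. The part of these shares in the members' levels was not tested. Leaf mesophyll markers were high in every library, while the 4 root markers stayed under 1 FPKM in all 8. RBCS1A, CAB1 and CA1, for the Rubisco small subunit, a chlorophyll-binding protein and a carbonic anhydrase, summed to 41149 to 43485 FPKM with iron and to 18648 to 23162 FPKM without it, and the part of this in the results was not tested. Markers of meristems and dividing cells summed to 0.763 to 1.47 FPKM in control, 0.694 to 12.5 FPKM in copper deficiency, 30.6 to 31.4 FPKM in iron deficiency and 39.8 to 42.0 FPKM in double deficiency, and their part in the results was not tested. Of the 12.5 FPKM in copper deficiency 1, SYP111 held 11.7 FPKM, and it was listed at 0 in copper deficiency 2 and both controls. CYCB1;1 and STM stood at 0.714 and 0.0248 FPKM in copper deficiency 1, not above their highest control values of 1.42 and 0.0455. The 4 flower and pollen markers summed to at most 2.48 FPKM in any library.

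Few members reached levels at which a change could be measured. The number of members above 0 ran from 39 in copper deficiency 2 to 77 in iron deficiency 1, and those at 1 FPKM or more from 8 to 45 in the same libraries. The authors' lower bound was above 0 for 4 to 33 members. The 10 most abundant members held 63.6 to 87.3% of the members' FPKM, depending on the library. At the threshold of membership, the 16 entries above 0 in exactly 2 libraries reached 11.7 FPKM at most, and the 15 long entries above 0 in exactly 1 library reached 2.04 FPKM. Testing required 1 FPKM in at least 2 libraries, which 43 members and 19170 genes in all passed. Of the tested members, 21 were listed at 0 in at least 1 library, from 2 in iron deficiency 1 to 15 in copper deficiency 2. Depth, gauged from the authors' bounds, was lower in every library with iron than in every library without it. Its part in these counts was not tested.

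Few members met the threshold in any comparison. Differences in log2(FPKM + 1) were fitted with limma across all 19170 genes, and a gene is called when its p-value, adjusted over all of them by the method of Benjamini and Hochberg, is under 0.05. The labels leave unsaid whether both libraries of a group stem from separate plant cultures, so the p-values measure only the spread between these libraries. In copper deficiency against control no member was called, where 0.183% of all genes were. There 3 members had an unadjusted p under 0.05 (orf262, orf113 and orf315), beside 937 of 19170 genes. In iron deficiency against control 1 member was called (orf118, lower), beside 34.1% of all genes (6.85% lower). In double deficiency against control 1 was called (orf313, lower), beside 45.1% (5.99% lower). Iron removal in the absence of copper, which is double against copper deficiency and shares no library with the iron comparison, gave 3 calls (orf262, orf113 and orf107a, all higher), beside 45.8% of all genes (39.4% higher). For copper removal in the absence of iron, which is double against iron deficiency, no member was called by limma, beside 1.14% of all genes. There 2 members had an unadjusted p under 0.05 (orf118 and orf110a), beside 3907 of 19170 genes. The interaction, which asks whether the effects of the deficiencies add on the log2 scale, called no member with limma, beside 0.589% of all genes. Here 3 members had an unadjusted p under 0.05 (orf118, orf262 and orf275), beside 2585 of 19170 genes. The split of calls over all genes depended on the scaling. In iron deficiency 5218 genes were called higher and 1314 lower, but 2760 and 2838 under median-ratio scaling. In double deficiency against control these counts were 7506 and 1148, against 3123 and 2969, and in double against copper deficiency 7552 and 1227, against 3247 and 3126. Median-ratio scaling also moved the median iron difference of all genes from 0.27 to 0.01, and that of the members from 0.45 to 0.18. The 5 called members are all open reading frames of no assigned function.

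The median difference of the tested members set beside that of all genes tells how the set lay as a whole. In iron deficiency against control it was 0.45 against 0.27 for all genes, and 28 of 43 members lay above 0, but without iron deficiency 1 it was -0.03 against 0.32, with 20 members above 0. In copper deficiency against control it was -0.47 against 0.01, with 4 members above 0, and without copper deficiency 2 it was -0.26 with 14 above 0. In double against copper deficiency it was 0.44 against 0.41, and without copper deficiency 2 it was 0.14. In double deficiency against control it was -0.04 against 0.41, the comparison whose own 4 libraries include neither of the libraries that stood apart. In double against iron deficiency it was -0.51 against 0.15, and without iron deficiency 1 it was 0. For the interaction it was -0.09 against 0.14, but 0.49 without iron deficiency 1 and also without copper deficiency 1, and -0.41 without iron deficiency 2, so its sign turned with single libraries.

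Counts of members whose library values did not overlap between groups give the same comparisons without a model. Both copper-deficient libraries lay below both controls for 17 of 43 tested members, beside 14% of all genes, and above them for 0, beside 15.3%. Of the 43, 9 reached 1 FPKM only in libraries with copper and 0 only without it, so the filter favoured the first of these counts. Both iron-deficient libraries lay above both controls for 15 members, beside 52.1% of all genes, and below for 6, beside 17%. In double deficiency 9 members lay above both controls, beside 62.4%, and 8 below, beside 13.4%. Double lay above copper deficiency for 18 members, beside 60.4%, and below for 1 (orf313), beside 13.4%. Double lay below iron deficiency for 15 members, beside 12.9%, and above it for 2 (orf118 and orf275), beside 42.6%. The filter favoured this count below iron deficiency in the same way. Members at 1 FPKM or more only without iron numbered 6, and only with iron 2, so it also favoured the counts of iron and double deficiency above groups with iron. All 4 libraries without iron lay above all 4 with iron for 5 members (atp1, nad5, orf107a, rps12 and rrn26), beside 39.8% of all genes, and below them for 0, beside 8%. Of the 43 tested members, 6 (nad5, matR, rpl5, rps12, orf110a and orf294) reached 1 FPKM only in libraries without iron and passed the filter through them. The filter thus favoured nad5 and rps12 in this count, so they are no independent support for it. It did not fix their place, since matR, rpl5, orf110a and orf294 passed alike and are not in the count. The identical nuclear copies of atp1 and rps12 were not ordered by iron in this way, as each stood higher in control 2 than in double deficiency 1. All 4 libraries without copper lay above all 4 with copper for 0 members, beside 1.17%, and below them for 2 (cox1 and orf315), beside 0.308%. Here 9 tested members, orf315 among them, reached 1 FPKM only with copper, so the filter favoured orf315 in this count. The non-overlap shares were computed on the deposited scale alone.

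The 2 ribosomal RNAs were the most abundant members by mean level over the libraries, an order that rested on iron deficiency 1. By single library, orf107a was the highest member in control 1, copper deficiency 1, iron deficiency 2 and both double-deficiency libraries. In control 2, copper deficiency 2 and iron deficiency 1 it was rrn18. The small subunit RNA rrn18 (ATMG01390, ChrM:361350-363284) stood at 17.6 and 26.3 FPKM in control, 20.7 and 5.74 in copper deficiency, 283 and 32.2 in iron deficiency, and 21.7 and 25.3 in double deficiency. The large subunit RNA rrn26 (ATMG00020, ChrM:8848-11415) followed at 12.6 and 15.8 FPKM in control, 17.0 and 2.71 in copper deficiency, 243 and 31.7 in iron deficiency, and 18.6 and 22.1 in double deficiency. Both were above control in both iron-deficient libraries, but those libraries differed from each other 8.23-fold in the summed level of the ribosomal RNAs, against 1.75-fold in that of the other members. The log2 difference between iron deficiency and control was 2.56 ± 1.04 (SE) for rrn26 (limma adjusted p = 0.105) and 2.11 ± 1.01 for rrn18 (0.154). Ribosomal RNAs made up 67.0% of the members' FPKM in iron deficiency 1 and 21.3 to 30.2% in the other 7 libraries. In copper deficiency the ribosomal RNAs and the other members differed alike between the libraries, by 4.45-fold and 3.92-fold.

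The open reading frame orf107a (ATMG00030, ChrM:11918-12241), shown above with the part it shares with rrn26, was the third most abundant member by mean level. It stood at 25.6 and 22.4 FPKM in control, 24.4 and 2.17 in copper deficiency, 87.3 and 65.8 in iron deficiency, and 48.5 and 56.7 in double deficiency. All 4 libraries from plants without iron lay above all 4 from plants with iron. The difference between double and copper deficiency was 2.57 ± 0.86 (limma adjusted p = 0.0490), and that between iron deficiency and control was 1.62 ± 0.86 (0.192). The difference between double and copper deficiency rested on copper deficiency 2 for its size: it was 1.07 without that library (limma adjusted p = 0.0147) and 4.08 without copper deficiency 1 (4.90e-04). Leaving out any 1 of the other 6 libraries ended the call, with adjusted p up to 0.167. In the deposited annotation its locus begins after the end of rrn26, whose span there is 2568 bp, against 3169 bp in RefSeq. The ratio of its level to that of rrn26 was 0.359 in iron deficiency 1, 0.801 in copper deficiency 2 and 1.42 to 2.61 elsewhere. The authors' bounds of orf107a in copper deficiency 2 were 0 and 8.34 FPKM, so the ratio there is uncertain.

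**Figure D2:**
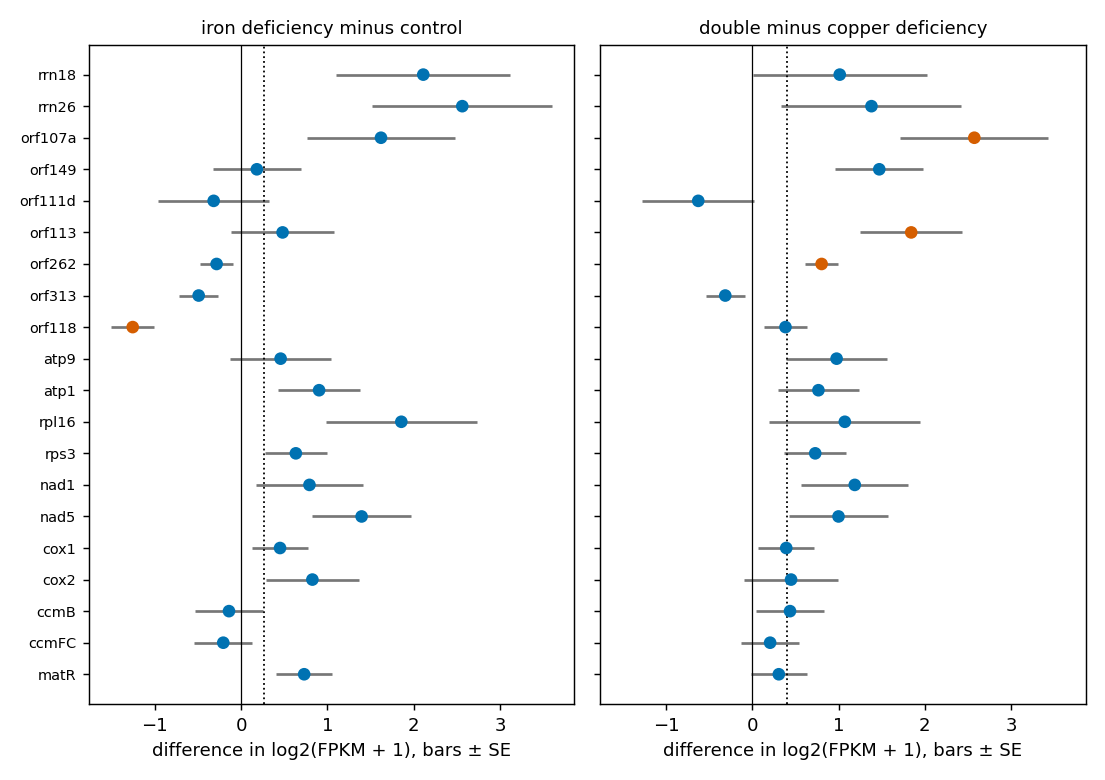
Differences in log2(FPKM + 1) (x axis, bars ± SE from limma) of 20 members (y axis) between iron deficiency and control (left) and between double and copper deficiency (right), with called members in orange, the others in blue and the median of all genes as a dotted line. The ribosomal RNAs lie at 2.11 and 2.56 in the left panel with bars of about 1, while orf118 (left) and orf107a, orf113 and orf262 (right) are called.

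Among the subunits of ATP synthase, which makes ATP from the proton gradient, atp9 (ATMG01080, ChrM:278649-279152) was the most abundant messenger RNA of known product. It stood at 10.1 and 11.5 FPKM in control, 10.2 and 1.98 in copper deficiency, 19.7 and 11.7 in iron deficiency, and 11.0 and 9.80 in double deficiency. Apart from the low and the high library its values lay within 9.80 to 11.7 FPKM, and its difference between iron deficiency and control was 0.46 ± 0.58 (limma adjusted p = 0.579). The gene atp1 (ATMG01190, ChrM:302166-303689), for the catalytic alpha subunit, stood at 1.60 and 1.77 FPKM in control, 2.14 and 0.318 in copper deficiency, 6.04 and 2.57 in iron deficiency, and 2.38 and 2.54 in double deficiency. All 4 libraries without iron were above all 4 with iron, and the difference between iron deficiency and control was 0.90 ± 0.47 (limma adjusted p = 0.188). The identical nuclear copy AT2G07698 stood at 2.05 and 2.68 FPKM in control, 2.07 and 0.332 in copper deficiency, 6.60 and 2.69 in iron deficiency, and 2.61 and 2.60 in double deficiency. There control 2 lay above both double-deficiency libraries, and reads of the 2 entries cannot be told apart. The 4 tested companions of atp1 (atp4, atp6, atp8 and atp9) had differences of 0.29 to 0.61. There are 2 entries of atp6, the proton channel subunit, with similar sequence, so their separate levels are uncertain.

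The complex I subunits, which carry electrons from NADH, were near the limit of detection. The nad1 entry with matR inside its span (ATMG00516, ChrM:143219-147048) was listed at 0 and 2.21 FPKM in control, 0 and 1.19 in copper deficiency, 2.45 and 1.79 in iron deficiency, and 3.05 and 1.81 in double deficiency. The nad5 entry ATMG00060 (ChrM:20571-22086), 1 of the pieces joined by trans-splicing, was listed at 0.502 and 0 FPKM in control, 0 in both copper-deficient libraries, 4.96 and 0.747 in iron deficiency, and 1.24 and 0.788 in double deficiency. Both nad5 values in iron deficiency exceeded both controls, but no complex I member was called. Of 11 members 2 were above 0 in every library and 5 could be tested. Their highest level in any library was 4.96 FPKM.

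Complex IV, the copper- and haem-containing oxidase at the end of the chain, was represented by 3 members, and complex III by cob, its cytochrome b. The gene cox1 (ATMG01360, ChrM:349830-351413), whose protein binds haem and copper at the site of oxygen reduction, stood at 1.87 and 1.89 FPKM in control, 0.941 and 0.688 in copper deficiency, 4.49 and 1.82 in iron deficiency, and 1.25 and 1.52 in double deficiency. All 4 libraries without copper lay below all 4 with copper, a pattern looked for after the values were seen. It held for 2 of 43 tested members (cox1 and orf315) and for 0.308% of all genes. Of these 2, orf315 reached 1 FPKM only in libraries with copper, so the filter favoured it in this count. Neither part of the pattern was called for cox1: the difference was -0.67 ± 0.33 in copper deficiency against control (limma adjusted p = 0.946) and -0.73 ± 0.33 in double against iron deficiency (0.275). The gene cox2 (ATMG00160, ChrM:40502-42628), whose protein takes up electrons from cytochrome c through its own copper centre, stood at 1.51 and 1.1 FPKM in control, 1.19 and 0.220 in copper deficiency, 5.91 and 1.40 in iron deficiency, and 0.877 and 1.66 in double deficiency. Its values with and without copper overlapped. The other subunit gene, cox3, and cob did not reach the level for testing, with at most 2.16 and 0.935 FPKM in any library.

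**Figure D3:**
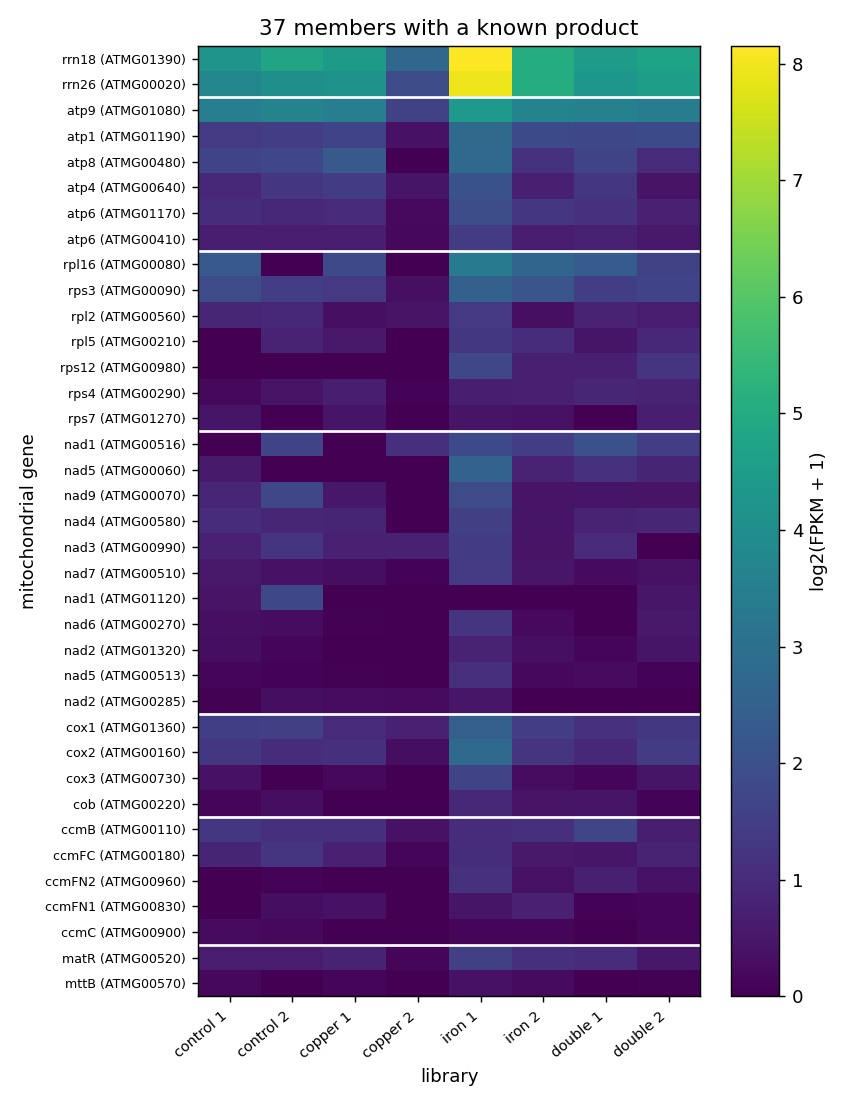
Level of the 37 members with a known product (y axis, grouped by role between white lines) in the 8 libraries (x axis), as log2(FPKM + 1) in colour. The ribosomal RNAs and atp9 stand out in all libraries, and most of the other genes lie near 0 and are brightest in iron deficiency 1.

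The 2 leading genes of cytochrome c maturation did not stand out in iron deficiency 1. The gene ccmB (ATMG00110, ChrM:30463-31083) stood at 1.47 and 1.19 FPKM in control, 1.15 and 0.325 in copper deficiency, 1.06 and 1.16 in iron deficiency, and 2.24 and 0.615 in double deficiency. The gene ccmFC (ATMG00180, ChrM:51293-53611), for a part of the haem ligation module, stood at 0.792 and 1.32 FPKM in control, 0.693 and 0.102 in copper deficiency, 1.12 and 0.478 in iron deficiency, and 0.413 and 0.761 in double deficiency. Neither was called in any of the 6 comparisons, and iron-deficient values overlapped the controls or lay below them. Their iron differences of -0.14 ± 0.39 and -0.21 ± 0.34 (limma adjusted p = 0.814 and 0.672) lie beside a median of 0.27 for all genes.

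Ribosomal protein genes were low and included several at 0. The gene rpl16 (ATMG00080, ChrM:25076-25615) was listed at 3.82 and 0 FPKM in control, 2.47 and 0 in copper deficiency, 9.09 and 5.27 in iron deficiency, and 4.15 and 1.98 in double deficiency. Its neighbour rps3 (ATMG00090, ChrM:25482-28733), whose locus shares 134 bases with it, stood at 2.68 and 1.85 FPKM in control, 1.57 and 0.258 in copper deficiency, 4.68 and 3.46 in iron deficiency, and 1.85 and 2.12 in double deficiency. Both were above both controls in iron deficiency, with differences of 1.86 ± 0.88 and 0.63 ± 0.36 (limma adjusted p = 0.151 and 0.220). The gene rps12 was listed at 0 in all 4 libraries with iron, at 2.33 and 0.632 FPKM in iron deficiency and at 0.637 and 1.41 in double deficiency. It was not called (limma adjusted p = 0.0560 in iron deficiency, 0.0842 in double deficiency against control). Its identical nuclear copy AT2G07675 was listed at 0.0836 and 1.18 FPKM in control and 0 in both copper-deficient libraries. The copy stood at 2.33 and 1.09 FPKM in iron deficiency, and 0.637 and 1.41 in double deficiency. Reads of these 2 entries cannot be told apart, so the 0 of rps12 in control 2 does not show that the sequence was absent. The summed level of the 7 ribosomal protein members was 5.83 ± 2.80 FPKM in control, 3.22 ± 3.58 in copper deficiency, 15.8 ± 6.0 in iron deficiency and 8.48 ± 0.156 in double deficiency (mean ± SD, n = 2).

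The maturase gene matR (ATMG00520, ChrM:144294-146312), whose product takes part in intron splicing, lies within the span of nad1 over its whole 2019 bp. It stood at 0.529 and 0.533 FPKM in control, 0.735 and 0.0989 in copper deficiency, 1.92 and 1.21 in iron deficiency, and 1.03 and 0.440 in double deficiency. Iron-deficient values were above both controls, with a difference of 0.73 ± 0.33 (limma adjusted p = 0.134). The gene mttB (ATMG00570, ChrM:157491-158351) was listed at 0.140 and 0 FPKM in control, 0.115 and 0 in copper deficiency, 0.307 and 0.186 in iron deficiency, and 0 and 0.0307 in double deficiency, and could not be tested.

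Open reading frames other than orf107a held 4 of the 5 called members. The most abundant of them, orf149 (ATMG00660, ChrM:190104-190553), stood at 5.0 and 5.98 FPKM in control, 4.37 and 0.707 in copper deficiency, 5.52 and 7.27 in iron deficiency, and 6.21 and 8.79 in double deficiency. Double deficiency lay above copper deficiency and above control, with a difference from copper deficiency of 1.47 ± 0.51 (limma adjusted p = 0.0546). The next, orf111d (ATMG01370, ChrM:360717-361052), stood at 7.63 and 3.53 FPKM in control, 7.02 and 5.45 in copper deficiency, 5.61 and 2.81 in iron deficiency, and 7.93 and 1.43 in double deficiency. Its libraries overlapped between all groups.

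The called open reading frames were of low level, and the names beyond orf118 were chosen after their values were seen. The gene orf118 (ATMG01010, ChrM:261105-261461) stood at 1.36 and 1.41 FPKM in control, 1.40 and 0.696 in copper deficiency and 1.87 and 1.42 in double deficiency, while iron deficiency 1 and 2 were both listed at 0 (limma adjusted p = 0.0120). The call ended without control 2 (0.0613) or without iron deficiency 2 (0.0503). Its neighbour orf114, with which it shares the bases shown in capitals above, was listed in iron deficiency at 13.7 and 1.26 FPKM, against 1.71 and 6.41 in control, and reads in the shared bases cannot be assigned to either. The gene orf313 (ATMG00590) stood at 2.12 and 2.23 FPKM in control, 1.42 and 1.34 in copper deficiency, 1.56 and 0.993 in iron deficiency, and 1.17 and 0.690 in double deficiency. Every deprived library was below both controls, and the difference in double deficiency was -0.73 ± 0.23 (limma adjusted p = 0.0400), a call that ended on leaving out any 1 of the 6 libraries outside iron deficiency (up to 0.144). The gene orf262 (ATMG01090) stood at 3.65 and 3.12 FPKM in control, 1.09 and 0.870 in copper deficiency, 2.53 and 2.66 in iron deficiency, and 2.85 and 2.09 in double deficiency. Its copper-deficient libraries were the lowest, with a difference of -1.15 ± 0.19 from control (limma adjusted p = 0.265) and of 0.80 ± 0.19 between double and copper deficiency (0.0153). The latter call ended without copper deficiency 2 (0.0580) or double deficiency 1 (0.0756). The gene orf113 (ATMG01220) was listed at 0 in both copper-deficient libraries, at 4.51 and 1.33 FPKM in double deficiency (limma adjusted p = 0.0442), at 6.75 and 1.65 in control and at 4.32 and 6.53 in iron deficiency. Its call ended on leaving out either library of copper or iron deficiency, or double deficiency 1 (up to 0.218). The fitted differences of orf118 and orf113, which compare against groups at 0, depend on the pseudocount and are not folds.

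With the ribosomal RNAs left aside, the 26 named members without a copy summed to 70.1 and 59.4 FPKM in control, 54.2 and 10.9 in copper deficiency, 160 and 103 in iron deficiency, and 88.8 and 84.9 in double deficiency. The 44 members with an identical copy summed to 29.3 and 39.1 FPKM in control, 29.0 and 7.63 in copper deficiency, 74.4 and 30.4 in iron deficiency, and 40.3 and 38.2 in double deficiency. Both sums were lowest in copper deficiency 2 and highest in iron deficiency 1, but in iron deficiency 2 the members without a copy were above both controls and those with an identical copy lay between them. The 46 nuclear entries that hold the copies summed to between 10.2 FPKM, in copper deficiency 2, and 61.2 FPKM, in iron deficiency 1. The median difference of the tested members between iron deficiency and control was 0.37 without a copy, 0.37 with an identical copy and 0.22 with a copy that differs. Between copper deficiency and control it was -0.76, -0.42 and -0.40 in that order, and for the interaction 0.22, -0.14 and 0.14. These differences between the kinds were not tested.

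Both nuclear genes for mitochondrial RNA polymerases rose on iron removal, with and without copper, while no member of known product was called. RPOTm (AT1G68990, MGP3 in RefSeq), the polymerase that transcribes the mitochondrial genome, stood at 4.58 and 4.33 FPKM in control, 4.37 and 5.53 in copper deficiency, 14.0 and 18.1 in iron deficiency, and 15.5 and 15.9 in double deficiency. Its iron-deprived libraries did not overlap the others, and the differences were 1.64 ± 0.16 in iron deficiency against control (limma adjusted p = 0.00120) and 1.5 ± 0.16 in double against copper deficiency (9.87e-04). The polymerase RPOTmp (AT5G15700), which serves mitochondria and chloroplasts, stood at 2.39 and 1.84 FPKM in control, 2.24 and 1.61 in copper deficiency, 5.99 and 7.30 in iron deficiency, and 7.94 and 7.05 in double deficiency (difference in iron deficiency 1.3 ± 0.19, limma adjusted p = 0.00430). Of 13 genes for splicing and maturation of mitochondrial RNA, 11 were tested, and 5 rose and 0 fell in iron deficiency, beside 27.2% of all genes higher and 6.85% lower. The RNA helicase gene PMH1 stood at 8.47 and 4.41 FPKM in control, 8.69 and 6.59 in copper deficiency, 28.2 and 28.4 in iron deficiency, and 33.1 and 33 in double deficiency, a difference of 2.03 ± 0.26 between iron deficiency and control (limma adjusted p = 0.00300). The splicing factor gene BIR6 differed by 1.13 ± 0.26 (0.0201). The count in iron deficiency was 2 without control 2, 3 without control 1 and 3 without iron deficiency 2. In double against copper deficiency 8 of the 11 rose and 0 fell, beside 39.4% higher and 6.4% lower among all genes, with 4 without double deficiency 1 and 5 without double deficiency 2 or copper deficiency 1.

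**Figure D4:**
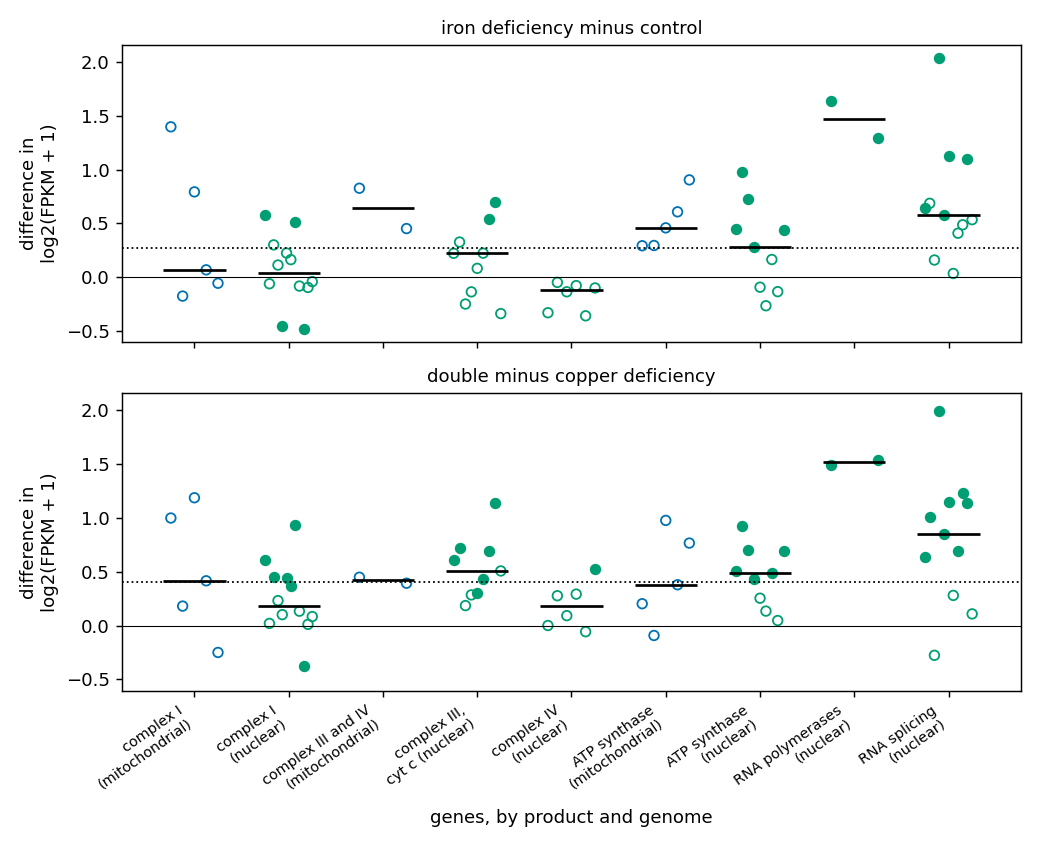
Differences in log2(FPKM + 1) (y axis) of tested genes, by product and genome (x axis), between iron deficiency and control (top) and double and copper deficiency (bottom). Circles are genes, blue for mitochondrial and green for nuclear ones, filled where called, with a bar at each median and the median of all genes dotted, and both nuclear polymerases are filled in both panels, between 1.3 and 1.64.

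Nuclear subunits of the complexes did not move as 1 group, and their counts in iron deficiency are to be read against 27.2% of all genes higher and 6.85% lower. In iron deficiency, 2 of 12 tested complex I genes rose, the NADH-binding subunit gene CI51 (0.58 ± 0.08, limma adjusted p = 0.00425) and GAMMA CAL2, a carbonic anhydrase-like subunit (0.51 ± 0.09, 0.00942). A further 2 fell, AT1G79010 for an iron-sulfur subunit (-0.48 ± 0.11, 0.0216) and GAMMA CA2 (-0.45 ± 0.11, 0.0198). In complex II, which has no mitochondrial member here, the flavoprotein gene SDH1-1 rose (0.76 ± 0.13, limma adjusted p = 0.00678), and both iron-sulfur subunit genes fell, SDH2-2 (-1.18 ± 0.27, 0.0176) and SDH2-1 (-0.67 ± 0.10, 0.00485). Without iron deficiency 1 or without control 1, 0 of the complex I genes fell. SDH2-2 stood at 24.8 and 27.5 FPKM in control against 7.88 and 15 in iron deficiency.

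Among 9 genes of complex III and cytochrome c, 2 rose and 0 fell in iron deficiency: cytochrome c gene CYTC-1 (0.70 ± 0.09, limma adjusted p = 0.00357) and MPPBETA, a core protein that also processes imported precursors (0.54 ± 0.09, 0.00594). None of the 6 complex IV genes was called in iron deficiency, and all 6 had differences below 0. The lowest were AT4G37830 (-0.36 ± 0.12, limma adjusted p = 0.0556) and AT3G15640 (-0.33 ± 0.13, 0.104). Of 9 ATP synthase genes 5 rose and 0 fell, with the beta subunit genes AT5G08680 (0.97 ± 0.10, 0.00157) and AT5G08690 (0.73 ± 0.12, 0.00668) leading. These belong to a family of 3 similar genes, so their separate levels are uncertain. The count was 2 on leaving out either control, either double-deficiency library or iron deficiency 2, and 3 without iron deficiency 1. Over the 52 tested nuclear genes of these lists, 17 rose and 4 fell in iron deficiency, beside 27.2% and 6.85% of all genes. Under median-ratio scaling all 6 complex IV genes fell in iron deficiency and 6 of 12 complex I genes fell. Under that scaling 2838 of all 19170 genes were called lower in iron deficiency. Both polymerases, in contrast, rose under every alternative run.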

How the data were processed

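RNA from rosette leaves was sequenced in 8 unstranded libraries, 2 per group. The authors deposited FPKM per gene with lower and upper bounds, made with Trimmomatic, TopHat2 2.1.1, Cufflinks and Cuffdiff, per the submitters' processing notes, and no source used here names the annotation or build. No counts were used, so read totals are unknown and no counting interval is given. From the width of the authors' FPKM bounds, the relative depth was 0.589 to 1 (the deepest library set to 1). It was 0.589 to 0.781 in the 4 libraries with iron and 0.788 to 1 in the 4 without iron. Depth thus ran with iron supply, and its part in the results was not tested. Genes at 1 FPKM or more in at least 2 libraries were kept, log2(FPKM + 1) was taken, and limma 3.58.1 in R 4.3.3 (empirical Bayes with an intensity trend) fitted all 8 libraries as 4 groups with 6 contrasts. Such differences understate the change of low genes. P-values were adjusted over all 19170 genes by Benjamini-Hochberg, with a threshold of 0.05. The procedure was tested on simulated data. An exact 0 can be a failed estimate and is written as listed at 0. Python 3.11.15 with pandas 2.3.3, Biopython 1.88 and matplotlib 3.10.9 handled tables, sequences and figures, and nuclear copies were found with blastn 2.17.0. RefSeq names were transferred to members by matching spans (83) or overlap with the order of neighbours (12).

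The members, the gene lists and the tests were chosen with earlier results of these data known. Values in all libraries are given for the 2 members of each role with the highest mean (3 for the open reading frames) and for called members, and for nuclear lists the 2 genes with the largest iron difference. Alternatives were other scalings, pseudocount and filter, short entries left out, nuclear copies added, a replicate block and each library left out in turn.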

Additional observations from a re-analysis of the deposited data

Results flagged for a closer look

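For 3 open reading frames, flagged by this pattern, both libraries fell on iron removal with copper and both rose without copper. How many of all genes show such a pattern was not computed. The interaction of these 3 had an unadjusted limma p under 0.05, which follows a choice made on the same values. Beside them stood 2585 of 19170 genes at that p, and none of the 3 interactions was called by limma. The interaction was 1.64 ± 0.35 for orf118 (limma adjusted p = 0.159), 1.34 ± 0.53 for orf275 (0.356) and 1.09 ± 0.27 for orf262 (0.194). The gene orf275 stood at 2.20 and 2.53 FPKM in control, 1.71 and 0.202 in copper deficiency, 1.3 and 1.1 in iron deficiency, and 2.02 and 1.95 in double deficiency. Both single deficiencies were below control and double deficiency was above iron deficiency. By its definition, the interaction has the same value for copper removal with and without iron, for orf275 as for every gene.

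Mitochondrial entries shorter than 300 bp, which are not members, were listed at 0 in both controls, both copper-deficient libraries and iron deficiency 1. They summed to 5655 FPKM over 4 entries in iron deficiency 2, to 3188 FPKM over 1 entry in double deficiency 1 and to 6202 FPKM over 4 entries in double deficiency 2. The shortest entry above 0 spanned 74 bp, and which of them were above 0 differed between libraries. With them, the share of all mitochondrial entries was 0.553%, 0.305% and 0.598% of FPKM in those 3 libraries.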

How the results depend on the processing

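The counts of called members are small. Most alternatives moved them in iron deficiency against control and in double deficiency against control. In the other comparisons most alternatives left them the same or nearly so. In iron deficiency against control the count of 1, which was lower, became 3 under quantile normalization, all lower. Under scaling to nuclear coding transcripts it became 3 (2 higher, 1 lower), and with a pseudocount of 0.1 it became 2 (1 higher, 1 lower). It was 4 with no filter (1 higher, 3 lower) and 0 with a filter of 5 FPKM. With short features left out it was 5 (4 higher, 1 lower), and with nuclear copies added 2 (1 higher, 1 lower). In double deficiency against control the count of 1, which was lower, became 2 under median-ratio scaling, under quantile normalization and with no filter, all lower. It became 2 with a pseudocount of 0.1 (1 higher, 1 lower), and 0 under scaling to nuclear coding transcripts and with a filter of 5 FPKM. In double against copper deficiency the count of 3 became 0 under median-ratio scaling and with no filter, and 1 under quantile normalization, which was lower where the 3 were higher. In double against iron deficiency the count of 0 became 1 with a pseudocount of 0.1 (higher), with no filter (lower) and with short features left out (higher). The interaction had 1 with no filter (lower). The causes were not tested. Leaving out each library in turn gave 0 to 1 called members in copper deficiency, 0 to 5 in iron deficiency, 0 to 2 in double deficiency against control, 0 to 6 in double against copper deficiency, 0 to 0 in double against iron deficiency and 0 to 1 in the interaction. Without both copper deficiency 2 and iron deficiency 1, an alternative chosen after seeing the data, 4 members were called in iron deficiency. The called members named in the report kept their direction under every alternative that tested them. The median of the members turned sign in places: in double against copper deficiency from 0.44 to -0.09 under quantile normalization, in iron deficiency from 0.45 to -0.03 without iron deficiency 1, and in double deficiency against control from -0.04 to 0.38 with a filter of 5 FPKM. For the interaction it ran from -0.41 to 0.52 over all alternatives.

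The labels do not say that equal replicate numbers mark shared plants or days, and the letters in the titles (A and B, but B and C in copper deficiency) do not run with the numbers in every group. By number, correlations of same-numbered deviations were -0.0394 to 0.0238. With the number as a replicate block, 2 members were called in iron deficiency against control.

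The share of FPKM in control and double deficiency was 0.0170% and 0.0221% over nuclear coding transcripts, 0.0167% and 0.0214% with short features left out of the total, 0.0174% and 0.0198% with nuclear copies counted, and 0.0108% and 0.0127% without the ribosomal RNAs. In iron deficiency the share of 0.0448% was 0.0701% over nuclear coding transcripts, 0.0655% with short features left out, 0.0491% with nuclear copies counted and 0.0185% without the ribosomal RNAs. In copper deficiency the share of 0.00734% was 0.00524 to 0.00911% over the same settings. Single libraries ranged from 0.0137 to 0.0147% in control, 0.00323 to 0.0114% in copper deficiency, 0.0200 to 0.0697% in iron deficiency and 0.0164 to 0.0172% in double deficiency. Of the members, 56 were too low to test.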
